A study of Mus musculus with 3 samples.

Results

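Tmem176a and Tmem176b are a pair of adjacent genes on mouse chromosome 6. They were followed across 3 lines of the mouse stromal cell OP9, with every array probe annotated to either gene taken as a member. The array carried 1 probe for each gene, 2 of the 16631 probes with a single gene symbol. Both are listed on the array by older names, 0610011I04Rik for Tmem176a and 1810009M01Rik for Tmem176b. The pair was selected on its intensities on these same arrays, so they are given as a description and no test was made of them.

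All 3 lines come from OP9, a line derived from newborn skull bone (calvaria) of mice of the strain B6C3Fe-a/a-Csf1op/Csf1op. These mice lacked functional macrophage colony-stimulating factor, and that mutation is common to every group. OP9-DL cells express GFP and the Notch ligand Delta-like 1, OP9-GFP cells express GFP, and OP9 cells are the untreated parental line. Each line was hybridised to 1 one-colour array, so no difference has a replicate check, and an effect of Delta-like 1 cannot be told apart from other differences between the cultures. The sources used here do not say whether a line is a single clone. Dll1, the gene of Delta-like 1, checked the labels, with 333.3 in OP9-DL, 20.5 in OP9-GFP and 14.0 in OP9 cells. All values are probe intensities as scaled by the authors, and on every array the median probe stands at 20.

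Tmem176a and Tmem176b encode small proteins that cross the membrane several times and are related to the MS4A family, to which the B cell antigen CD20 belongs. They lie in membranes of the Golgi and endosomes, where they have been described as cation channels. Both are best known from dendritic cells and macrophages and from T helper 17 cells and type 3 innate lymphoid cells, and Tmem176b has been linked to restraint of the inflammasome in mouse. An early name of Tmem176b, Lr8, came from work on lung fibroblasts, so expression outside blood cells is also known.

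The genes are read in opposite directions from starts that lie close together. In RefSeq annotation of GRCm38.p6, Tmem176b lies on the minus strand and Tmem176a on the plus strand, and the closest pair of annotated starts is 109 bases apart. The sequence table held 2 starts for Tmem176a and 3 for Tmem176b, and the distances between a start of one gene and a start of the other ran from 109 to 668 bases. The promoter windows below are shown because those of the closest starts cover a common stretch of DNA. It includes the bases between the starts and the bases that follow each start. Each runs from 250 bases before to 50 bases after a start, written 5′ to 3′ on the strand of its gene. The capitals mark the 208 bases that both windows share and that read as reverse complements of each other. The Tmem176a window is chr6:48841233-48841532 (plus strand) and the Tmem176b window is chr6:48841325-48841624 (minus strand).
Tmem176a: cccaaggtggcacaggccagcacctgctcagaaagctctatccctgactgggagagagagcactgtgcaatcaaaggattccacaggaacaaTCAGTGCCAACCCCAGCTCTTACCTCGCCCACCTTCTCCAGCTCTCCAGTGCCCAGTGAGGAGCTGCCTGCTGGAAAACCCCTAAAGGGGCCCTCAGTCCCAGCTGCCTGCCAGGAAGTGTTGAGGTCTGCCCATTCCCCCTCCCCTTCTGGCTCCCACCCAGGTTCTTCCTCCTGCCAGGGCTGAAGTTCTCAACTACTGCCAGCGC
Tmem176b: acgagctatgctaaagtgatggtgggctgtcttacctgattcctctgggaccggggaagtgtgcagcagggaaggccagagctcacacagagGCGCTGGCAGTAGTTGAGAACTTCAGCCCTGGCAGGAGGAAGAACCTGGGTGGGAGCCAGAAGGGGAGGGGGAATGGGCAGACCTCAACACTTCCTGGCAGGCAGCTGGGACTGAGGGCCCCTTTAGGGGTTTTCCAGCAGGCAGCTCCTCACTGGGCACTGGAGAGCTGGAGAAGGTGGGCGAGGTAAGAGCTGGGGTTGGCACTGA

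**Figure D1:**
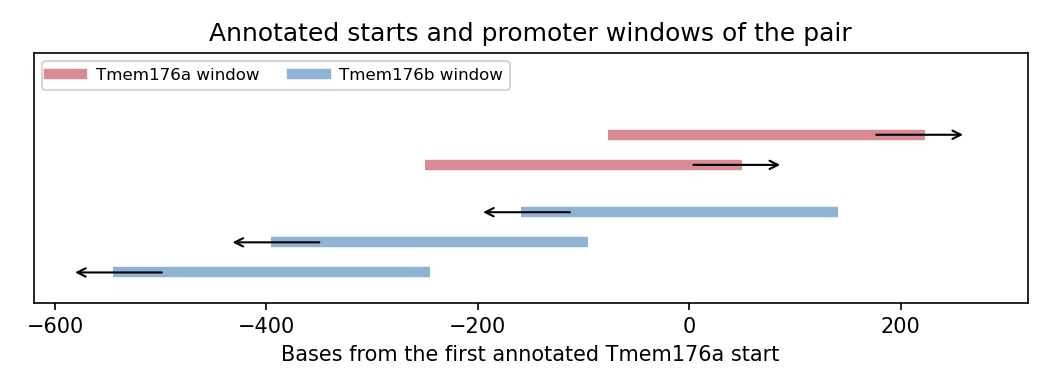
Annotated starts of Tmem176a (2, red) and Tmem176b (3, blue). The x axis gives the distance in bases from the first Tmem176a start, each bar is a window of 300 bases around a start, and each arrow begins at the start and points in the direction of reading. The closest starts, 109 bases apart, point away from each other, and their windows share 208 bases.

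The Tmem176a window holds 2 CG dinucleotides and the Tmem176b window 4, both below the median of 7 over the 32851 windows of the table. Fewer were held by 14.1% of all windows for Tmem176a and by 31.4% for Tmem176b. Their GC content is 59.7% and 60.3%, against a median of 52.7%. Of 8 short motifs searched on both strands, the PU.1 core GAGGAA was present and the other 7 were not. PU.1 is a transcription factor of myeloid cells. One match lies in the shared stretch, beginning 9 bases after the Tmem176a start and 123 bases before the Tmem176b start, and the Tmem176b window holds another 211 bases before its start. The core is common, since 28.3% of all windows hold it. No match was found to TGACTCA (AP-1), TGGGAA (RBPJ, the DNA-binding partner of Notch), AGGTCA (bound by nuclear receptors), CCAAT (the CCAAT box), TATAAA (the TATA box), GGGCGG (SP1) or CACGTG (the E box). These are held by 5.2%, 25.6%, 16.3%, 37.4%, 13.6%, 35.7% and 7.15% of all windows, in the same order. None of the searched motifs overlaps another in these windows.

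Tmem176a had an intensity of 317.7 in OP9-DL, 6.5 in OP9-GFP and 23.4 in OP9 cells. It was thus bright in OP9-DL cells, close to the median probe in OP9 cells and dim in OP9-GFP cells. Tmem176b had an intensity of 465.9 in OP9-DL, 9.5 in OP9-GFP and 37.2 in OP9 cells. The order of the lines was the same for both genes, with OP9-DL highest, OP9 next and OP9-GFP lowest. With 1 array per line there is no spread against which neighbours in this order could be set. Fewer cells that express the genes and less RNA per cell cannot be told apart in such bulk samples.

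**Figure D2:**
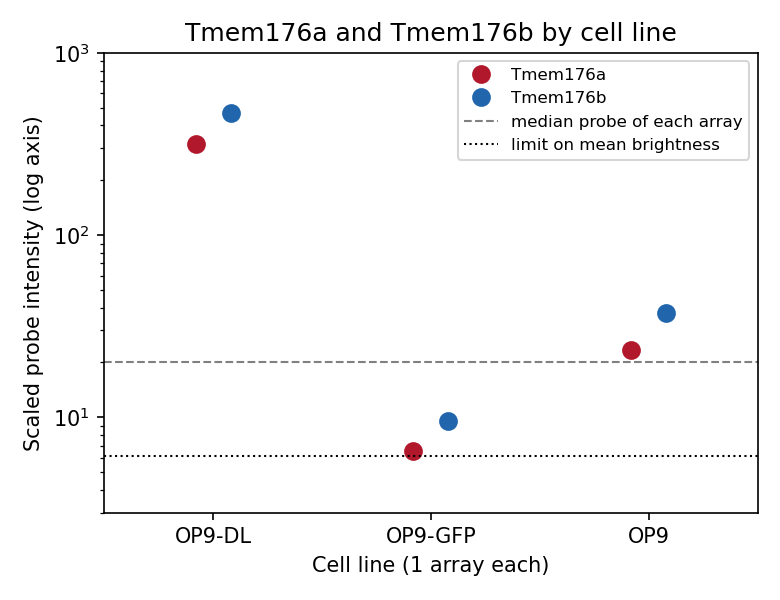
Scaled probe intensity (log axis) of Tmem176a (red) and Tmem176b (blue) on the OP9-DL, OP9-GFP and OP9 arrays, 1 point per array. The dashed line is the median probe of each array, at 20, and the dotted line is the limit of 6.13 set on a probe's mean brightness. Both genes stand highest on the OP9-DL array (317.7 and 465.9), and lowest on the OP9-GFP array (6.5 and 9.5).

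The position of each probe within its array gives the same picture without the scale. The Tmem176a probe was brighter than 87.9% of the probes with a value on the OP9-DL array, 30.1% on that of OP9-GFP and 52.5% on that of OP9. The Tmem176b probe was brighter than 90.9%, 36.8% and 59.6% of them on the same arrays. Whether the OP9-GFP readings lie above the array's background is not known, since the deposited values carry no detection call.

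Comparisons used the 15581 probes that had a value on all 3 arrays and a mean brightness of at least 6.13, the 25th percentile, and both members passed. The threshold for calling a probe higher or lower was 2-fold. In OP9-DL against OP9-GFP cells, Tmem176a was 48.9-fold and Tmem176b 49.0-fold higher, and 2.31% of all probes compared were higher by the threshold. Ordered by this difference, Tmem176a was at place 4 and Tmem176b at place 3 of 15581. The log2 differences were 5.61 for Tmem176a and 5.62 for Tmem176b, a gap between the genes of -0.0049 (Tmem176a minus Tmem176b). The gap was 0.12 in each of the comparisons with OP9 given next. The OP9-GFP readings behind these folds are dim, at 1.06 times the brightness limit for Tmem176a and 1.55 times for Tmem176b. With a constant of 5 added to every intensity, the log2 differences were 4.81 for Tmem176a and 5.02 for Tmem176b.

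In OP9-DL against OP9 cells both genes were also higher, Tmem176a by 13.6-fold and Tmem176b by 12.5-fold, at places 19 and 25 from the top. Here 4.31% of probes were higher by the threshold. In OP9-GFP against OP9 cells both were lower. The log2 difference was -1.85 for Tmem176a, with the OP9 array 3.60 times brighter, and -1.97 for Tmem176b, with the OP9 array 3.92 times brighter. In this comparison 6.75% of probes were lower by the threshold. Of the GFP-carrying lines, OP9-DL thus stood above the parental line and OP9-GFP below it, for both genes. The comparisons share arrays and are not independent of each other.

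Few probes showed this order in steps of this size. On 151 of the 15581 probes, 0.969%, the OP9-DL array was at least 2-fold above both other arrays. On 15 of them, 0.0963%, the OP9 array was in turn at least 2-fold above the OP9-GFP array, and both members are among these 15. Another 10 of the 15 have a single symbol, and 3 have none. Alcam, an adhesion molecule of the immunoglobulin family, stood at 58.4 in OP9-DL, 5.1 in OP9-GFP and 13.9 in OP9 cells. Hoatz, a gene of motile cilia, stood at 246.7 in OP9-DL, 22.7 in OP9-GFP and 89.2 in OP9 cells. Bdh2, a short-chain dehydrogenase, stood at 32.8 in OP9-DL, 5.2 in OP9-GFP and 13.0 in OP9 cells. Kank3, an ankyrin-repeat protein, completed the genes not described further on, with 45.6, 8.2 and 20.0 in the same order of lines. The OP9-GFP readings of Alcam and Bdh2 lie below the brightness limit of 6.13, so their step from OP9-GFP to OP9 is not firm. The same holds for several others of the 15. This count and these genes were chosen after the values were seen.

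Each member was the probe most like the other. Likeness was measured over the 3 arrays as the Euclidean distance between log2 values centred on their own mean, so that 0 means the same differences between lines. The distance between Tmem176a and Tmem176b was 0.097, and no other probe came closer than 0.29 to Tmem176a or 0.33 to Tmem176b. The partner stayed at place 1 under quantile, median and lowess scaling and with a constant added. The members were chosen on these same values, so the unchanged place is not separate support for their likeness. Over only 3 arrays such a distance describes these arrays and nothing more.

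Among probes with a single symbol, the same 9 other genes were most like both members, and 3 probes without one lay among them. Rab6b, a small GTPase of Golgi traffic, was the closest of the 9, at 49.8 in OP9-DL, 1.4 in OP9-GFP and 3.9 in OP9 cells, with a distance of 0.34 to Tmem176a. The OP9-GFP and OP9 readings lie below the brightness limit, and it passed through OP9-DL alone, so neither its ratios nor the order of these 2 lines is firm. The OP9-GFP readings of Dlk1, Odf3l1, Akr1c12, Xmr and Rap1gap lie below the limit too. So do the OP9 readings of Odf3l1 (37.0 in OP9-DL, 1.8 in OP9-GFP and 4.9 in OP9 cells) and Rap1gap (58.0, 4.3 and 5.4). Both passed through OP9-DL alone, and their ratios are no firmer than those of Rab6b. Dlk1, a non-canonical Notch ligand and imprinted gene, stood at 53.2 in OP9-DL, 2.2 in OP9-GFP and 8.1 in OP9 cells, with a distance of 0.84 to Tmem176a and 0.80 to Tmem176b. Tpsab1, a tryptase of mast cell granules, stood at 818.9 in OP9-DL, 9.0 in OP9-GFP and 20.6 in OP9 cells, at a distance of 1.10 to Tmem176a. The aldo-keto reductase genes Akr1c12 (distance 0.68 to Tmem176a) and Akr1c13 (distance 1.23) were also on the list. They have near-identical relatives that a probe can mix, as has Xmr (distance 1.19), so these are uncertain. The others were 1700024B05Rik (distance 0.82), Odf3l1 (0.90), which is related to a sperm tail protein, and Rap1gap (1.40), which switches off the small GTPase Rap1.

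**Figure D3:**
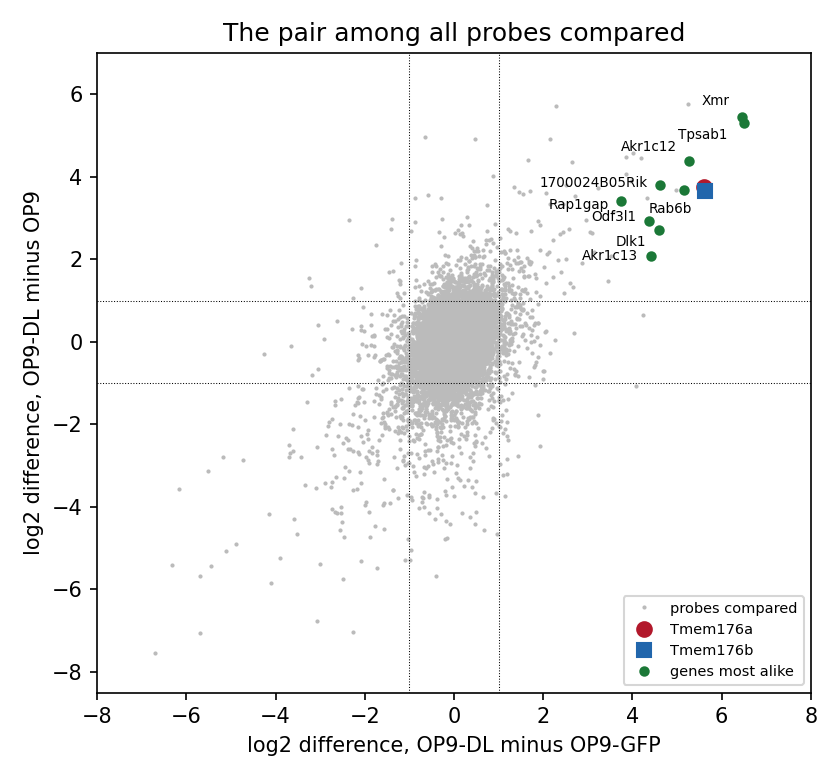
The log2 difference of OP9-DL minus OP9-GFP (x axis) against that of OP9-DL minus OP9 (y axis) for the 15581 probes compared (grey), with the dotted lines at 2-fold. Tmem176a (red circle) and Tmem176b (blue square) lie on top of each other at 5.61 and 5.62 on the x axis, and the 9 genes most like them are marked in green. Both axes share the OP9-DL array, so the slope of the cloud is partly built in.

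The question whether the surrounding genes moved with the pair was addressed with the 10 protein-coding genes on each side in RefSeq order. Of these 20 genes, 17 had a probe and 12 were bright enough to compare. In OP9-DL against OP9-GFP cells 2 of the 12 were at least 2-fold higher, 0 were lower, and 10 lay within 2-fold, and their median log2 difference was 0.10. Over all probes, 5.03% lay past 2-fold in either direction and the median was -0.01. None of the 12 came near the difference of the pair, and the largest was 2.88. In OP9-DL against OP9 cells 1 of the 12 was higher and 1 was lower, beside 4.31% and 6.91% of all probes. In OP9-GFP against OP9 cells 0 were higher and 1 was lower, beside 4.86% and 6.75% of all probes.

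On one side lie 8 genes of the Gimap family, GTPases of immunity that are best known from lymphocytes. Gimap6 stood at 24.3 in OP9-DL, 3.3 in OP9-GFP and 6.5 in OP9 cells, a ratio of 7.36 to OP9-GFP and 3.74 to OP9. Its OP9-GFP reading lies below the brightness limit and its OP9 reading just above, and it passed the limit on mean brightness through OP9-DL, so these ratios and the order of the 2 dim lines are not firm. Gimap8 stood at 204.0 in OP9-DL, 197.4 in OP9-GFP and 166.6 in OP9 cells, and Gimap1 at 33.3, 35.1 and 39.9 in the same order, both within 2-fold throughout. Gimap5 stood at 8.9 in OP9-DL, 8.4 in OP9-GFP and 19.4 in OP9 cells, lower in both GFP-carrying lines. The other 4 Gimap genes were below the brightness limit. Among them Gimap9 read 8.3 in OP9-DL, 4.1 in OP9-GFP and 3.3 in OP9 cells, while Gimap4 read 3.2, 2.1 and 2.4, Gimap7 3.9, 3.7 and 4.4, and Gimap3, the nearest gene on that side, 7.7, 6.1 and 4.5, in the same order. Gimap genes resemble each other in sequence, and a probe may read more than 1 of them.

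Beyond the Gimap genes, Repin1 (16.5 in OP9-DL, 19.6 in OP9-GFP and 18.3 in OP9 cells) and Zfp775 (18.6, 17.2 and 23.2), both zinc finger genes, stayed within 2-fold. On the side of Tmem176a, the 2 nearest genes, Gm7932 and Aoc1, had no probe with that symbol, and neither had Doxl2. Doxl1, related to the diamine oxidases, was 1.39 times as bright in OP9-DL as in OP9-GFP and 1.18 times as bright as in OP9 cells, and Svs1, a seminal vesicle protein gene, was dim at 5.1, 5.3 and 6.0. Gpnmb, a glycoprotein of macrophages and bone cells, stood at 41.9 in OP9-DL, 30.0 in OP9-GFP and 31.3 in OP9 cells. Igf2bp3, an RNA-binding protein of fetal tissues, stood at 282.5 in OP9-DL, 83.9 in OP9-GFP and 166.3 in OP9 cells, 3.37-fold higher in OP9-DL than in OP9-GFP and 1.70-fold higher than in OP9 cells. Between it and the pair lies Malsu1, a mitochondrial ribosome factor, at 424.2 in OP9-DL, 438.1 in OP9-GFP and 639.1 in OP9 cells. Tra2a, a splicing factor, stood at 471.5, 407.0 and 319.1 and Ccdc126 at 32.7, 31.9 and 21.5 in the same order of lines.

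**Figure D4:**
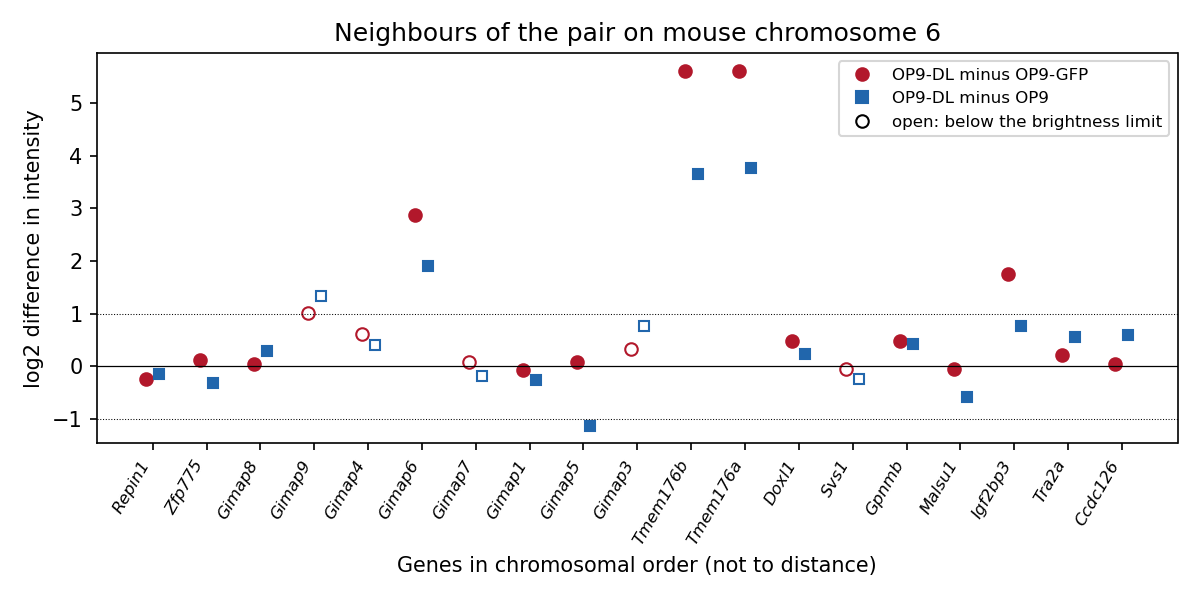
The log2 difference of OP9-DL minus OP9-GFP (red circles) and of OP9-DL minus OP9 (blue squares) for the pair and for the 17 neighbours with a probe, in chromosomal order. Open symbols are probes below the brightness limit, and the dotted lines mark 2-fold. The pair stands at 5.61 and 5.62 in red, Gimap6 follows at 2.88 and Igf2bp3 at 1.75, and the nearest neighbours with a probe, Gimap3 and Doxl1, lie within 2-fold.

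The pair was also set beside other genes arranged in the same way. Among RefSeq promoter windows, 401 pairs of genes had overlapping windows, were read away from each other and had both genes bright enough to compare. Apart from Tmem176a and Tmem176b, 17 of the other 400 pairs had a gene past 2-fold in OP9-DL against OP9-GFP cells, and in 0 of them were both genes past 2-fold. Arl16, for example, had a log2 difference of -4.15 and its partner Hgs -0.31, and AI837181 had -3.35 while its partner Drap1 had 0.24. Ccl25, a chemokine, had 1.33 and its partner Elavl1 -0.07. In OP9-DL against OP9 cells 70 of the 400 pairs had a gene past 2-fold, and 3 had both genes past it the same way (Mvk with Mmab, Rnf167 with Slc25a11, and Tap1 with Psmb9). In OP9-GFP against OP9 cells the numbers were 72 and 5, the same 3 pairs together with S100a13 with S100a1 and Slc25a40 with Dbf4, and in 1 pair, Rrp9 with Parp3, the genes were past 2-fold in opposite directions. Over all probes compared, 5.03% lay past 2-fold in OP9-DL against OP9-GFP. The share was 11.2% in OP9-DL against OP9 and 11.6% in OP9-GFP against OP9. With such shares few pairs have both genes past 2-fold, so the counts are not read as a trait of pairs arranged in this way. This set of pairs was formed, and the pairs named, after the values of Tmem176a and Tmem176b were known, and no test was made.

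A limit bears on the likeness of the members. From the starts shown above the genes are read away from each other. The RefSeq gene table, however, gives Tmem176b a longer span on the minus strand, which reaches upstream beyond those starts and contains Tmem176a. The probes' own sequences were not used here, so whether a probe could read RNA of both genes was not tested.

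Of 18 listed genes of the MS4A family, the relatives of the pair, 13 had a probe and 4 were bright enough to compare. In OP9-DL against OP9-GFP cells 0 of the 4 were 2-fold higher, beside 2.31% of all probes. So few genes cannot set the family apart from the pair. Of the 4, 1 was lower by 2-fold or more, beside 2.72% of all probes. That gene, Ms4a4c, stood at 7.9 in OP9-DL, 22.4 in OP9-GFP and 12.3 in OP9 cells. Ms4a4d stood at 138.5 in OP9-DL, 182.1 in OP9-GFP and 204.9 in OP9 cells. Ms4a5 (31.4, 22.7 and 30.5) and Ms4a8a (6.2, 6.4 and 7.2) stayed within 2-fold in the same order of lines. The median log2 difference of the 4 genes was -0.22, beside -0.01 over all probes.

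Genes of the inflammasome, the caspase-1 platform that matures interleukin-1, went both ways. Of 13 compared in OP9-DL against OP9-GFP cells, 2 were higher, 2 were lower and 9 lay between, with a median of -0.06. Of all probes, 2.31% were higher and 2.72% lower. Il18, a cytokine that caspase-1 matures, stood at 36.7 in OP9-DL, 18.0 in OP9-GFP and 284.5 in OP9 cells. Ninj1, a protein of membrane rupture, stood at 189.1 in OP9-DL, 93.1 in OP9-GFP and 308.1 in OP9 cells. Gsdmd, the pore-forming gasdermin D, stood at 10.3 in OP9-DL, 44.5 in OP9-GFP and 91.9 in OP9 cells, and Casp4, the sensor of intracellular lipopolysaccharide, at 7.3, 15.0 and 201.0. All 4 were highest in OP9 cells, unlike the pair. The sensor Nlrp3 stood at 11.4 in OP9-DL, 14.3 in OP9-GFP and 10.7 in OP9 cells, and its effector Casp1 at 10.5, 17.0 and 12.9.

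Among genes of endosomal and Golgi traffic, where the proteins of the pair reside, 24 were compared in OP9-DL against OP9-GFP cells. Of these 0 were higher, 2 were lower and 22 lay within 2-fold, beside 5.03% of all probes past it, and their median was -0.14. Rab38, a GTPase of lysosome-related organelles, stood at 6.6 in OP9-DL, 44.7 in OP9-GFP and 75.2 in OP9 cells. Ap1s2, an adaptor subunit for traffic between Golgi and endosomes, stood at 23.6 in OP9-DL, 51.4 in OP9-GFP and 10.4 in OP9 cells. At the upper end Eea1, a tether of early endosomes, stood at 15.9, 10.8 and 8.2. Of 5 genes for antigen presentation on class II molecules 1 was lower, beside 2.72% of all probes. It was Ifi30, a thiol reductase of lysosomes, at 40.5 in OP9-DL, 105.7 in OP9-GFP and 88.2 in OP9 cells. Lgmn, a lysosomal protease at 247.5, 208.0 and 280.9, had the highest ratio of OP9-DL to OP9-GFP among the 5. The median of the 5 was -0.29, beside -0.01 over all probes.

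Among the blood cells in which the pair is best known, markers of dendritic cells were mostly dim, or blank on an array. Of 15 dendritic cell markers with a probe, 4 were bright enough to compare. Between OP9-DL and OP9-GFP cells 0 of these differed by 2-fold, beside 5.03% of all probes. Zbtb46, a transcription factor of classical dendritic cells, stood at 17.7 in OP9-DL, 25.1 in OP9-GFP and 63.5 in OP9 cells, and the class II gene H2-Aa at 19.2, 17.1 and 16.1. Itgax, the integrin CD11c, read 6.3 in OP9-DL and 3.5 in OP9 cells and was blank in OP9-GFP, Flt3 and Ccr7 had a value in OP9 cells alone (2.5 and 1.5), and Cd74 read 4.7, 3.2 and 4.0. The summed intensity of the list was 109.9 in OP9-DL, 114.3 in OP9-GFP and 150.8 in OP9 cells. Of 14 macrophage and monocyte markers with a probe, 6 were bright enough to compare. Of these 6, 0 differed by 2-fold between OP9-DL and OP9-GFP cells (5.03% of all probes). In OP9-DL against OP9 cells 1 was higher and 2 were lower (4.31% and 6.91% of all probes). Ordered by their ratio of OP9-DL to OP9-GFP, they ran from Cd68 at 46.3 in OP9-DL, 42.9 in OP9-GFP and 29.4 in OP9 cells to Cd14 at 23.0, 34.0 and 55.6, and the sum of that list was 166.5 in OP9-DL, 176.2 in OP9-GFP and 175.3 in OP9 cells. Ptprc, the antigen CD45 of all white blood cells, read 2.8, 2.5 and 2.1. Spi1, which encodes PU.1, read 8.9 in OP9-DL, 11.2 in OP9-GFP and 10.4 in OP9 cells.

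Of 10 markers of T helper 17 and type 3 innate lymphoid cells with a probe, 6 were bright enough to compare. In OP9-DL against OP9-GFP cells 0 of these were higher and 1 was lower, beside 2.31% and 2.72% of all probes. The lower gene was Ahr, the aryl hydrocarbon receptor, at 9.5 in OP9-DL, 28.9 in OP9-GFP and 34.0 in OP9 cells. Id2, an inhibitor of transcription factors that stromal cells also make, was at the upper end with 3231 in OP9-DL, 2163 in OP9-GFP and 918.6 in OP9 cells. Rora (12.5, 10.1 and 13.1), Il1r1 (16.2, 17.5 and 17.0) and Maf (13.4, 21.3 and 13.7) were bright enough to compare and stayed within 2-fold. The receptor genes Il23r (4.3, 3.9 and 2.8) and Ccr6 (3.2, 2.7 and 5.7) were dim. Il17a read 52.2 in OP9-DL, 52.7 in OP9-GFP and 73.4 in OP9 cells.

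Of the mast cell markers Tpsab1 alone differed by 2-fold between OP9-DL and OP9-GFP cells, 1 of 4 compared, beside 5.03% of all probes. Cpa3, a carboxypeptidase of the same granules, read 6.7 in OP9-DL, 8.1 in OP9-GFP and 4.9 in OP9 cells. The sum of the 9 mast cell probes was 909.1 in OP9-DL, 97.9 in OP9-GFP and 146.4 in OP9 cells, nearly all of the excess from Tpsab1, while Kit was blank in OP9-DL and OP9-GFP and read 1.6 in OP9 cells. Of the lymphoid markers 2 were compared and 0 differed by 2-fold between OP9-DL and OP9-GFP cells, beside the same 5.03%. Cd4 stood at 11.7, 11.2 and 13.3 and Cd79a at 6.9, 7.5 and 4.9 in the same order of lines. The stromal identity of the cultures was visible on every array. Vim, the intermediate filament of mesenchymal cells, read 32110 in OP9-DL, 25328 in OP9-GFP and 18420 in OP9 cells, and Vcam1, an adhesion molecule for blood cells, 350.3, 242.6 and 339.6. Of 10 stromal genes compared in OP9-DL against OP9-GFP cells 2 were lower, beside 2.72% of all probes. They were Col3a1 (195.9 in OP9-DL, 936.4 in OP9-GFP and 660.5 in OP9 cells) and the chemokine Cxcl12 (1997, 4411 and 3720). Among the other stromal genes Thy1 (3.0, 1.7 and 1.1) and Eng (4.8, 4.3 and 3.5) were dim.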

How the data were processed

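RNA of 3 OP9 lines was measured on 1 array each. Per the labels, the amplified amino allyl RNA carried Cy5 and was prepared by the array maker's (Toray) protocol. The deposited values are linear probe intensity, scaled by the authors so that each array has a median of 20, which the values themselves show. For background correction, scanner and the rule for blank cells (6.32% to 6.62% of 23473 probes) no source used here gives details, and the number of arrays limits the precision.

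Values were used as deposited and log2 was taken with no constant. Of 20775 probes valued on all arrays, the 15581 with a mean log2 intensity at or above the 25th percentile were compared at 2-fold. Symbols came from the platform table (16631 probes with 1 symbol, 6842 without) and were updated through RefSeq names (3947 renamed by synonym, 62 kept). Genes with several probes took the mean log2 value. RefSeq (GRCm38.p6) gave gene order and promoter windows. No source used here names the array's genome build, so the only coordinates printed are those of the RefSeq promoter windows.

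The members and the 10 lists with 153 entries were chosen with earlier results of these data known. Named genes were the members, the neighbours with a probe, the MS4A genes compared, the 10 genes most like each member (the partner included), the list members past 2-fold and at either end in OP9-DL against OP9-GFP, and defining markers of dendritic and T helper 17 or innate lymphoid cells. Nlrp3, Casp1, Ptprc, Spi1, Cpa3, Vim, Thy1, Eng, Rora, Il1r1, Maf and the genes said so in the text were named afterwards. Alternatives are quantile, median and lowess scaling (span 0.3), constants of 2 and 5, other brightness limits, blanks at the lowest value, 1.5-fold and 3-fold, 5 neighbours a side, the brightest probe per gene and the largest gap as the measure of likeness. The counting and the likeness ranking were tested on simulated data. Python 3.11.15, numpy 2.4.6, pandas 2.3.3, statsmodels 0.14.6 and matplotlib 3.10.9 were used.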

Additional observations from a re-analysis of the deposited data

How the results depend on the processing

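No paired analysis was possible because each line had 1 array. For both genes the direction and the side of 2-fold were the same in all 3 comparisons under the 3 scalings and both constants. Taking the brightest probe per gene could change nothing for them, since each has 1 probe. The log2 difference of OP9-DL against OP9-GFP ran from 4.81 to 5.62 for Tmem176a and from 5.02 to 5.66 for Tmem176b, and both lowest values came with a constant of 5, by construction, since a constant draws dim readings together. Against OP9, OP9-DL ran from 3.51 to 3.81 for Tmem176a and from 3.48 to 3.71 for Tmem176b, and OP9-GFP from -1.85 to -1.30 and from -1.97 to -1.54. All probes past 2-fold in OP9-DL against OP9-GFP numbered 784, 1343 without the limit on dim probes and 457 with it at the 50th percentile. At 1.5-fold the counts of the 3 comparisons (OP9-DL against OP9-GFP, OP9-DL against OP9, OP9-GFP against OP9) were 2519, 4493 and 4574, and at 3-fold 275, 656 and 557. With 5 neighbours a side, 1 and not 2 was past 2-fold in OP9-DL against OP9-GFP, beside 5.03% of all probes. At 1.5-fold, 5 of the 12 neighbours compared, and not 2, were counted in OP9-DL against OP9. In OP9-GFP against OP9 it was 3 and not 1. Of all 15581 probes compared, 4493 and 4574 were past 1.5-fold in these comparisons. Medians of short marker lists moved when the limit left other genes in. For dendritic cell genes the main value -0.34 (OP9-DL against OP9-GFP) became 0.27 without the limit. With the limit at the 50th percentile the dendritic cell median was -0.91 in OP9-DL against OP9 and -0.45 in OP9-GFP against OP9, that of mast cell genes 3.22 in OP9-DL against OP9-GFP and 2.31 in OP9-DL against OP9, and that of T helper 17 and innate lymphoid genes 0.66 in OP9-DL against OP9, while no lymphoid gene was left. Of 177 list medians recomputed, 171 stayed on their side of 2-fold and within 1.5-fold. That count does not ask whether the sign held, and some of the medians changed sign. In OP9-DL against OP9-GFP that of class II genes went from -0.29 to 0.17 without the limit. That of MS4A genes went from -0.22 to 0.04 with the limit at the 50th percentile. Of the 9 other genes most like Tmem176a, the largest gap as the measure kept all but 1.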
